A study of Drosophila melanogaster with 12 samples.

Results

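The 9 genes described here encode lipases or predicted lipases of the fly gut and fat body: CG17192, CG17191, CG6271, CG6277, CG6283, CG6295, CG5966, mag (magro) and Lip3. They were taken by name, and every probe set that the array's annotation pairs with one of them was read in every sample. This gave 9 probe sets of the 18952 on the array. A probe set of its own was found for 8 of the 9, against 11982 genes over the whole array, while CG6277 is read only by a probe set that it shares with CG6271, which also has its own.

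Drosophila melanogaster were collected at 1 day old, and whole-fly RNA was hybridised to 12 Affymetrix Drosophila Genome 2.0 arrays in 4 groups of 3: tko25t males, wild-type males, tko25t females and wild-type females, the females being virgins. The tko25t allele is a point mutation in the X-linked gene for mitoribosomal protein S12, and all mutants were the offspring of homozygous Canton S tko25t mothers and hemizygous Oregon R tko25t fathers. Wild-type flies came from the same cross, Canton S females with Oregon R males, without the mutation, so both genotypes share the same hybrid background, medium and age. Each array held RNA from its own collection of flies from 3 independent crosses, and nothing tells which male and which female collections came from the same cross. The question put to the data was whether mRNA levels of these lipases differ between mutant and wild-type flies of each sex.

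Lipases split the ester bonds of fats. In the fly, as in other animals, dietary triacylglycerol is split in the gut lumen before its fatty acids can enter the cells of the midgut, whereas fat stored in the fat body, an organ with roles of both liver and adipose tissue, is released by lipases within cells. Most of the genes described here belong to the pancreatic lipase family, which are secreted enzymes, while mag and Lip3 belong to the acid lipase family, which in mammals includes gastric and lysosomal lipases. The magro protein is known as a midgut enzyme that splits triacylglycerol and cholesterol esters, and Lip3 is known for its rise on starvation in larvae. In whole-fly RNA neither the organ nor the cell that made a transcript is seen, and fewer cells of a type cannot be told apart from less RNA per cell.

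The genes have one more thing in common, their position. In the RefSeq annotation of the Release 6 assembly, used here only for gene order, 6 of the 9 lie next to each other on chromosome arm 3R, in the order CG6295, CG17192, CG17191, CG6283, CG6277, CG6271, with a further lipase gene, CG6296, before the first and TwdlT, a cuticle protein gene, after the last. Lip3 lies elsewhere on 3R, mag on 3L and CG5966 on the X chromosome.

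Values are the authors' MAS5 signals, which are linear and were scaled by them to the same trimmed mean on every array. A signal below about 9.3 to 17.1, the range of the 25th percentile over the arrays, is close to background. In each sex mutant and wild-type arrays were compared by limma on log2(signal + 11.6), and p-values were adjusted by the Benjamini-Hochberg method over 10045 probe sets in males and 9855 in females, those with the highest mean signal in that sex. A difference passed at an adjusted p under 0.05. Differences are given as tko25t minus wild type on this log2 scale, on which the offset of 11.6 makes a difference between low signals smaller than the fold of the mean signals. Levels are not compared between probe sets, whose probes bind with unequal strength.

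Some arrays and groups stood apart. Signals of 3 control probe sets for 18S ribosomal RNA exceeded those of tko25t males by between 12.6-fold and 17.5-fold in wild-type males, against ratios of 0.779 to 1.6 in females, so that in males the RNA preparation and the genotype cannot be told apart. The summed signal of 7 eggshell genes was 4.33% and 3.66% of the mean female level on wild-type male arrays 1 and 2, and between 0.147% and 0.547% on the other 4 male arrays. The summed signal of 6 testis genes was 4.38% of the mean male level on tko25t female array 1, against 0.592% to 1.43% on the other 5 female arrays. For genes other than the lipases, whether a call held without these 3 arrays is not given. For the lipases, fits without these 3 arrays are given where they change a call. They took both sexes together over 11566 probe sets, unlike the main comparisons within a sex, and left 1 wild-type male array. The mean signal of tko itself was 309.8 for mutant males, 216.1 for wild-type males, 492.5 for mutant females and 518 for wild-type females, and as the mutation is a point mutation, this does not check the labels. Arrays of a group correlated at 0.952 to 0.987 and no 2 were identical.

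Among the lipases, CG17192, CG6271 and CG5966 rose in tko25t males, and CG17192, CG6271 and CG6283 rose in tko25t females. Of the 7 probe sets tested none was lower in mutants by limma, whether adjusted or at an unadjusted p under 0.05, or by SAM, the study's own test (0 of each in both sexes). In males this was 3 of the 7 lipase probe sets tested. Of all probe sets tested in males 5.54% rose and 5.65% fell, 11.2% in all. In females it was again 3 of 7, where of all probe sets 1.44% rose and 0.609% fell, 2.05% in all. The median difference over the 7 was 0.81 in males and 1.07 in females, against -0.01 and -0.04 over all probe sets tested. Averaged over the sexes, in a fit of all 12 arrays and 11566 probe sets, CG17192, CG5966, CG6271 and CG6283 rose, 4 of 7, and the other 3 tested did not pass. In that fit 8.44% of all probe sets passed, 5.54% higher and 2.9% lower in mutants. The probe sets of CG17191 and Lip3 had mean signals too low to be tested in either sex. The filter took the mean over both genotypes. Wild-type means of CG17192 and CG6271 (19.33 and 41.1 in males, 19.27 and 33.57 in females) lay below the lowest mean tested (43.6 and 34). These 2 were thus tested only through their mutant arrays, while Lip3, lower in mutant males without a filter (-0.88, limma unadjusted p = 0.00571), was left out. The counts and medians over the 7 therefore depend partly on the filter. The lipases were chosen with earlier results of these data known, so these counts describe them and are not independent evidence.

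**Figure D1:**
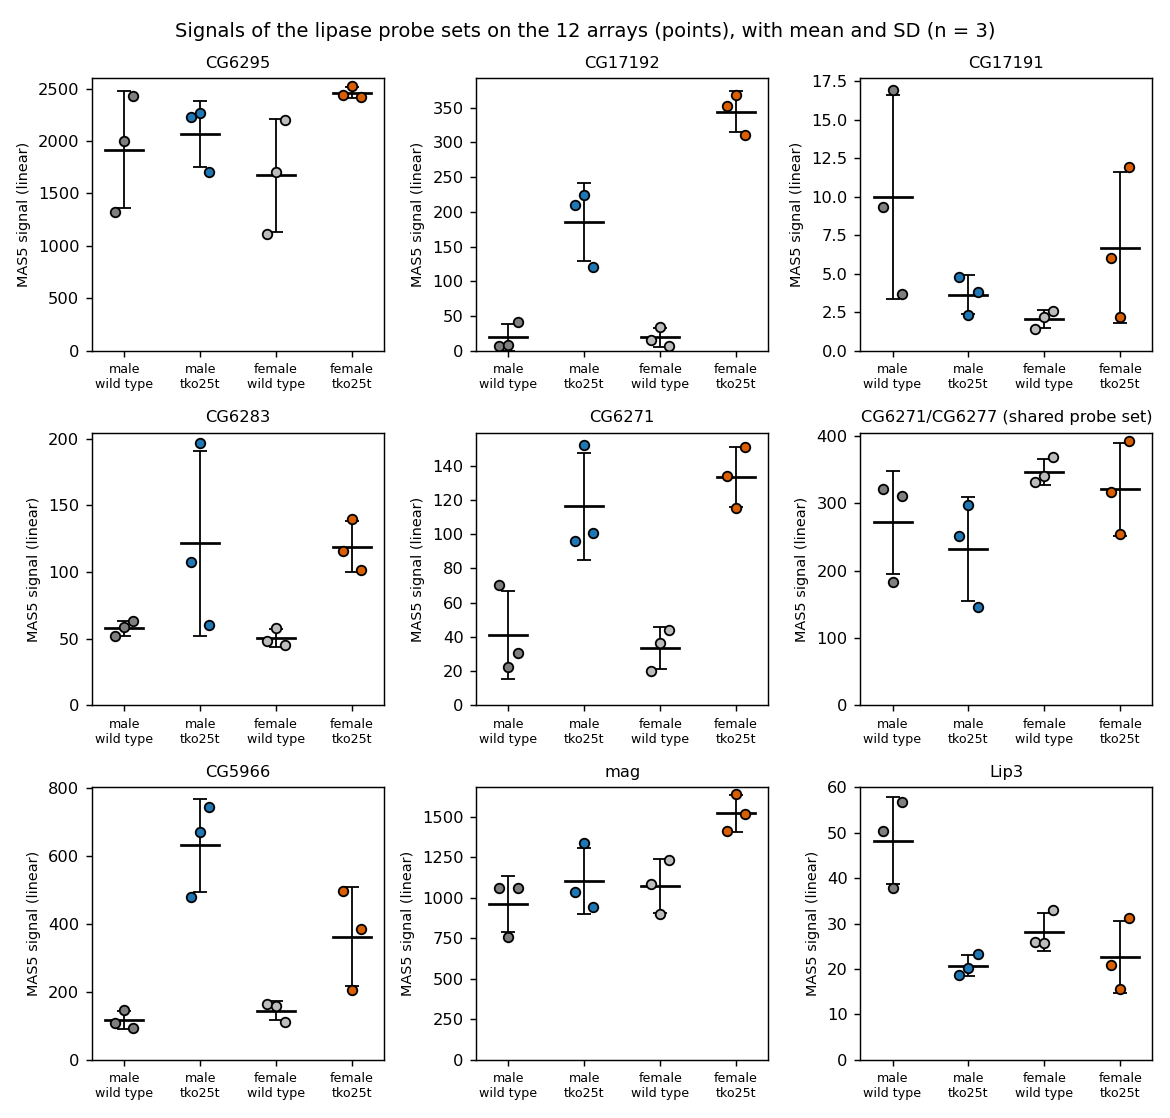
MAS5 signal (linear scale, from 0) of each of the 9 lipase probe sets on the 12 arrays. Points are arrays, horizontal bars group means and vertical bars SD (n = 3). For CG17192, CG6271 and CG5966 all 3 mutant arrays of each sex lie above all wild-type arrays of that sex. So do 15.5% of tested probe sets in males and 9.62% in females. For the probe set shared by CG6271 and CG6277 the genotypes overlap. Lip3 signals are lower on the mutant than on the wild-type male arrays, as for 17.4% of all probe sets. They were too low to be tested.

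CG17192, annotated as a triacylglycerol lipase gene of the gut, had the largest difference of the lipases in both sexes. In males its signals were 209.4, 224.8 and 120.7 on the mutant arrays and 7.0, 8.9 and 42.1 on the wild-type arrays. In females they were 353.0, 367.7 and 311.2 in mutants and 15.6, 34.9 and 7.3 in wild type. Every mutant array was thus above every wild-type array of either sex, and 3 of the wild-type signals lay below the 25th percentile of their array, at the edge of what the array can measure. In males the mean was 185 ± 56.2 for mutants and 19.33 ± 19.7 for wild type (SD, n = 3), a 9.57-fold difference. In females it was 344 ± 29.3 and 19.27 ± 14.2, a 17.9-fold difference. Both folds rest on wild-type signals near background. On the log2 scale the male difference was 2.80 ± 0.39 (standard error; adjusted p = 0.00366) and the female difference 3.62 ± 0.30 (adjusted p = 0.00128). Non-overlap in this direction was found for 15.5% of tested probe sets in males and 9.62% in females.

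The male difference of CG17192 depends on the wild-type arrays used. Wild-type male arrays 1 and 2, which carried eggshell transcripts, had its lowest male signals, 7.0 and 8.9, and array 3 had 42.1. Without them and the female array with testis transcripts, the male difference was 1.83 (standard error 0.45) and did not pass (adjusted p = 0.091, the highest of its 14 alternatives, the lowest being 4.81e-04), with 1 wild-type male array left, taken to vary like the other groups. In females the difference passed under every alternative tried, with adjusted p between 1.92e-04 and 0.0138. The eggshell transcripts' part in the male value was not tested.

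CG6271, a gene of the same row on 3R, rose in both sexes by its own probe set. Signals in males were 95.9, 152.2 and 100.7 on mutant and 70.5, 22.4 and 30.4 on wild-type arrays. In females they were 133.9, 115.4 and 150.7 on mutant and 20.2, 36.5 and 44.0 on wild-type arrays. The genotypes did not overlap in either sex, with a gap that was narrower in males, where wild-type array 1 reached 70.5. The mean was 2.83-fold higher in mutant males and 3.97-fold higher in mutant females, and the log2 difference was 1.36 ± 0.31 (standard error; adjusted p = 0.026) in the former and 1.71 ± 0.22 (adjusted p = 0.00955) in the latter. The male call was lost when any male array but wild-type array 1 was left out, with adjusted p between 0.0603 and 0.0811 and differences of 1.10 to 1.47. It was also lost without a filter on low signal and without the 3 arrays named above (adjusted p = 0.0519 and 0.0611; over its 14 alternatives it ran from 0.00282 to 0.0811). The female call was lost without mutant array 3 (1.63, adjusted p = 0.0635, over its alternatives from 0.00344 to 0.0635).

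CG6283, a lipase gene beside CG6277 in the row, rose in females, where it measured 116.0, 139.8 and 101.4 on mutant and 48.2, 57.7 and 45.0 on wild-type arrays. These do not overlap, and the difference was 1.07 (standard error 0.16, adjusted p = 0.016), with means of 119.1 ± 19.4 and 50.3 ± 6.61, a 2.37-fold difference. In males the mutant signals were 107.6, 196.7 and 60.3 and the wild-type signals 51.9, 58.4 and 63.2. Mutant male array 3 lay among the wild-type arrays, and the difference of 0.81 (standard error 0.32, 95% interval 0.09 to 1.52) did not pass (adjusted p = 0.132). Without that array it was 1.19 and passed (adjusted p = 0.0337, the lowest of its 14 alternatives, the highest being 0.523). The female call was lost without mutant array 3 or wild-type array 1 or 2 (1.17, 1.05 and 1.16, adjusted p = 0.0566, 0.0816 and 0.051), in the fit of all 12 arrays and without the 3 arrays named above (1.07 and 1.08, adjusted p = 0.0803 and 0.225). Over its 14 alternatives the adjusted p ran from 0.00786 to 0.225.

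CG6295, at the other end of the row, did not pass in either sex. In females its signals were 2439.8, 2526.4 and 2421.2 on mutant arrays and 1116.9, 1701.4 and 2198.6 on wild-type arrays. Here the mutant arrays lay close together and all above the more scattered wild-type arrays, with a difference of 0.61 (standard error 0.22, 95% interval 0.11 to 1.11, adjusted p = 0.243). In males the mutant signals were 2230.7, 2266.0 and 1707.0 and those of wild type 1325.1, 2004.1 and 2428.1, which overlap, and the difference was 0.14 (standard error 0.21, 95% interval -0.32 to 0.60, adjusted p = 0.702).

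The probe set that CG6271 shares with CG6277 cannot tell the transcripts of these neighbours apart. Its signals in males were 251.6, 297.7 and 146.4 on mutant and 320.3, 183.6 and 310.8 on wild-type arrays, and in females 316.4, 254.2 and 392.0 and 331.8, 339.7 and 368.2. The genotypes overlapped in both sexes. The difference was -0.23 in males (standard error 0.27, 95% interval -0.83 to 0.36, adjusted p = 0.607) and -0.13 in females (standard error 0.16, 95% interval -0.49 to 0.24, adjusted p = 0.766). The probe set that reads CG6271 alone rose in both sexes, so these probe sets of 1 gene did not move alike, and no value of CG6277 alone can be given.

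CG17191 lies between CG17192 and CG6283. Its signal ran from 1.4 to 16.9 over the 12 arrays and was below the array's 25th percentile on 10 of them. In wild-type males it was 9.3, 16.9 and 3.7 and in mutant males 4.8, 2.3 and 3.8, which overlap, and both lie at background. In a fit of all probe sets without a filter the difference was -0.46 in males (adjusted p = 0.34) and 0.39 in females (adjusted p = 0.569), and over 10 alternatives in each sex the adjusted p was never under 0.15.

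**Figure D2:**
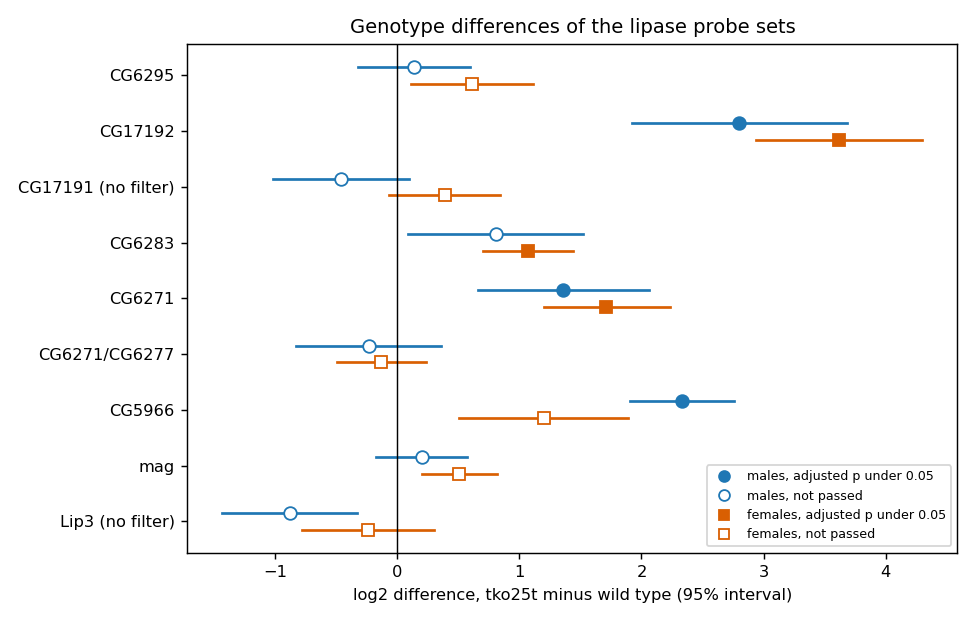
Log2 difference between tko25t and wild type for each lipase probe set in males (circles) and females (squares), with 95% intervals, on signals raised by 11.6. Filled symbols passed at an adjusted p under 0.05, and CG17191 and Lip3 come from the fit without a filter on low signal. The upper 6 probe sets are those of the row of genes on 3R, among which CG17192 has the largest difference. The probe set shared by CG6271 and CG6277, drawn last of the 6, lies near 0.

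Within the row of genes the size of the difference was unequal for some pairs of probe sets and not shown to be unequal for others. For each array the log2 signal of 1 probe set was taken minus that of another, and mutant and wild-type arrays were compared within each sex with an exact two-sided permutation test of 400 relabellings, for 10 pairs of the 5 tested probe sets of the row. This test was chosen after the values had been seen. CG17192 minus CG6283 was higher in mutants by 2.27 averaged over the sexes, and CG6295 minus CG17192 was lower in mutants (-2.84), each with exact p = 0.005, the smallest this test can give, and 0.01 after adjustment over the 10 pairs. CG17192 minus CG6271 was higher by 1.67 (exact p = 0.01, adjusted p = 0.0143), with an overlap of genotypes in males. CG6271 minus the probe set it shares with CG6277 was higher by 1.72 (exact p = 0.005, adjusted p = 0.01), with no overlap of genotypes in either sex. CG17192 and CG6283 minus that shared probe set were also higher (3.39 and 1.12, each with exact p = 0.005 and adjusted p = 0.01). CG6295 minus CG6271 was lower in mutants (-1.16, exact p = 0.01, adjusted p = 0.0143). CG6283 and CG6271 were not shown to differ in their change (-0.60, exact p = 0.09, adjusted p = 0.09). Nor did CG6295 minus CG6283 pass after adjustment (-0.57, exact p = 0.045, adjusted p = 0.0562), or CG6295 minus the shared probe set (0.55, exact p = 0.055, adjusted p = 0.0611). CG6296, the lipase gene before the row, had mean signals of 79.9 for mutant and 60.1 for wild-type females, with a difference of 0.35 (standard error 0.14, adjusted p = 0.327), and in males, at 31.93 and 31.73, it was too dim to be tested.

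Outside the row, CG5966, a triacylglycerol lipase gene on the X chromosome, had the smallest adjusted p of the lipases in males. Its signals were 477.8, 670.7 and 742.6 in mutant and 106.7, 145.5 and 94.5 in wild-type males. In females they were 496.1, 205.1 and 386.0 in mutants and 162.9, 157.4 and 111.6 in wild type. Genotypes did not overlap in either sex, but mutant female array 2, at 205.1, was close to the wild-type arrays. The means were 630.4 ± 137 and 115.6 ± 26.6 in males, a 5.45-fold difference, and 362.4 ± 147 and 144 ± 28.2 in females, a 2.52-fold difference. The log2 difference was 2.33 in males (standard error 0.19, adjusted p = 1.75e-04), where it passed under every alternative tried. In females it was 1.20 (standard error 0.30, 95% interval 0.51 to 1.89) and did not pass (adjusted p = 0.104). It passed by SAM, the study's own test, and in the limma fit of all 12 arrays (adjusted p = 0.0438). It also passed with replicate number as a block (adjusted p = 0.0407) and without mutant female array 2 (1.55, adjusted p = 0.00752, the lowest of its 14 alternatives, the highest being 0.389).

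CG5966 varied between mutant female arrays together with transcripts of the larval fat body, which newly emerged adults still carry. Of 6 larval fat body markers 3 have a probe set of their own, Lsp2, a larval serum protein, and Fbp1 and Fbp2, fat body proteins. All 3 rose in mutant males (1.83, 4.37 and 4.35, adjusted p = 0.00217, 0.00767 and 0.0105), beside 5.54% of all probe sets tested. None passed in females by limma or SAM (1.09, 3.64 and 3.39, adjusted p = 0.595, 0.147 and 0.191, with 2 at an unadjusted p under 0.05), where 1.44% of all probe sets rose. Their summed signal was 5974, 3358 and 9245 on the mutant male arrays, 774.7, 1251 and 924.8 on the wild-type male arrays, 5094, 283.7 and 1701 on the mutant female arrays and 213.9, 200.4 and 811.9 on the wild-type female arrays. On mutant female arrays 1, 2 and 3 Fbp1 measured 1535.7, 50.4 and 333.6, the same order as CG5966, whereas on the mutant male arrays it measured 1717.8, 737.8 and 2773.9, in another order than CG5966. None of these markers was at 0 on any array, and their part in the CG5966 difference was not tested. The general fat body markers apolpp and FASN1 did not pass in either sex (0.02 and -0.15 in males, 0.34 and -0.24 in females, adjusted p between 0.452 and 0.923).

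**Figure D3:**
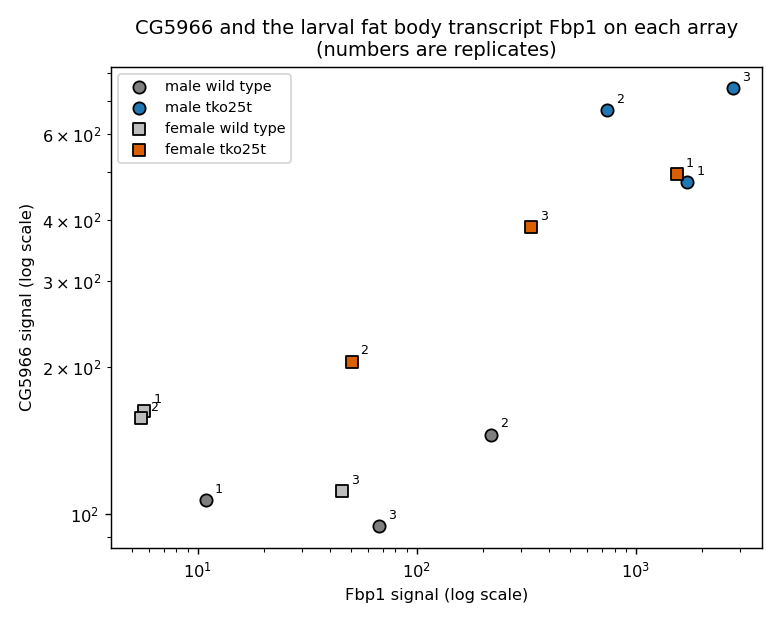
Signal of CG5966 against that of the larval fat body transcript Fbp1 on each of the 12 arrays, both axes on a log scale, with replicate numbers beside the points. Mutant arrays lie at the upper right, except mutant female array 2, where CG5966 was 205.1 and Fbp1 50.4, near the wild-type arrays.

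For mag, the midgut lipase of the acid lipase family, the genotypes overlapped in males and not in females. Female signals were 1411.8, 1637.6 and 1515.6 in mutants and 1082.7, 898.6 and 1234.5 in wild type. Male signals were 1033.6, 1336.1 and 941.3 in mutants and 1060.1, 759.5 and 1058.1 in wild type. Only in females were all mutant arrays higher, by 1.42-fold in the mean, and the difference of 0.51 (standard error 0.13, 95% interval 0.20 to 0.82) did not pass after adjustment (adjusted p = 0.118). In males it was 0.20 (standard error 0.16, 95% interval -0.17 to 0.57, adjusted p = 0.458), and the difference between the sexes did not pass (-0.31, standard error 0.23, adjusted p = 0.616).

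Lip3 had lower mean signals in mutants than in wild type. In males it measured 18.7, 20.3 and 23.2 in mutants and 50.3, 37.9 and 56.7 in wild type, and in females 20.9, 15.6 and 31.3 and 25.9, 25.7 and 33.0. All mutant males were below all wild-type males, which was also true of 17.4% of all probe sets, whereas the female genotypes overlapped. The male means of 20.73 ± 2.28 and 48.3 ± 9.56 differ 2.33-fold. Its mean over the 6 male arrays was below 43.6, the lowest mean tested in males, so it took no part in that test. In the fit without a filter, where 4.46% of probe sets passed in males and 0.693% in females, the male difference was -0.88 (standard error 0.24, unadjusted p = 0.00571, adjusted p = 0.0825) and the female difference -0.24 (standard error 0.23, adjusted p = 0.797), and under 10 alternatives in males the adjusted p stayed between 0.0715 and 0.246.

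The 4 groups were then set side by side for each lipase. In wild type none of the 7 tested probe sets differed between males and females by limma (0 at an unadjusted p under 0.05, lowest adjusted p = 0.198), beside 72.2% of all 11566 that did. In the fit without a filter the dim CG17191 and Lip3 were higher in wild-type males (0.61 and 0.58, adjusted p = 0.0439 and 0.0408). In that fit 9150 of 18769 probe sets passed in either direction, and the signals of CG17191 were at background. In mutants, where 66.5% of probe sets differed between the sexes, 26.3% higher and 40.2% lower in males, CG5966 was higher in males by 0.84 (standard error 0.28, adjusted p = 0.0185) and mag was lower in males (-0.47, standard error 0.17, adjusted p = 0.0231), and 5 lipase probe sets did not pass. The CG5966 call was lost without mutant male array 2 or 3 or mutant female array 2 (0.79, 0.71 and 0.49, adjusted p = 0.0565, 0.0715 and 0.084), and that of mag without mutant male array 1 or 3 or mutant female array 2 or 3 (adjusted p between 0.0516 and 0.0948). Over all alternatives the adjusted p ran from 0.00349 to 0.084 for CG5966 and from 0.00738 to 0.0948 for mag. CG17192 did not pass in mutants (-0.90, standard error 0.40, adjusted p = 0.0643).

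By mean signal CG17192 ran from mutant females (344) to mutant males (185) and then to wild-type males and females (19.33 and 19.27), which were not shown to differ (-0.07, adjusted p = 0.877). CG5966 ran from mutant males (630.4) to mutant females (362.4), then wild-type females (144) and wild-type males (115.6), of which the last pair were not shown to differ (-0.29, adjusted p = 0.364). CG6271 was at 133.3 and 116.3 in mutant females and males, a difference within their spread (-0.20, adjusted p = 0.58), and at 41.1 and 33.57 in wild-type males and females. The test of the genotype difference itself between the sexes passed for none of the 7 lipases, beside 0.104% of all probe sets. It was 1.14 for CG5966, more in males (standard error 0.40, unadjusted p = 0.0142, adjusted p = 0.268), the only 1 of these 7 with an unadjusted p under 0.05, and -0.82 for CG17192 (standard error 0.57, 95% interval -2.05 to 0.41, adjusted p = 0.579). A larger difference in 1 sex was therefore not shown for either. In the fit without a filter it was -0.85 for the dim CG17191 (unadjusted p = 0.0236, adjusted p = 0.36).

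For each lipase the 3 genes whose log2 signal was most like it over the 12 arrays were taken by Pearson's r, which is given as a description, since genotype and sex are shared by all points. CG17192 was most like CG3819, a DNA endonuclease gene of the gut (r = 0.970), st, an eye pigment transporter (r = 0.945), and mesh, a protein of gut septate junctions (r = 0.943). For CG3819 the mean signals were 759.1 and 134.3 for mutant and wild-type males and 1375 and 132.7 for females, the same order of the mutant sexes as for CG17192. Within groups, after the group means were taken out, the r of these 3 was 0.50, 0.59 and 0.30.

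CG5966 was most like Cyp6a23, a cytochrome P450 gene (r = 0.950, within groups 0.79), galla-1 (0.950, within groups 0.44) and Gtpx (0.947, within groups 0.79). Cyp6a23 had means of 1252 and 115.3 in mutant and wild-type males and 744.6 and 81.33 in females. The genes most like mag were CG10472, CG8997 and CG7916 (r = 0.947, 0.945 and 0.939), with r within groups of 0.90, 0.84 and 0.91. Such values were not particular to mag. The r within groups was 0.82, 0.83 and 0.81 for the genes most like CG6295, and 0.80, 0.83 and 0.95 for those most like CG17191, which is near background. Those most like CG6271 were FucTC, adp and Cisd2 (0.924, 0.921 and 0.917), those most like CG6283 were CG8389, adp and Jon65Aiii, a gut serine protease gene (0.873, 0.872 and 0.869), and those most like CG6295 were LManVI, CG4830 and CG31259 (0.870, 0.870 and 0.864). The gene adp, adipose, whose loss makes flies fat, was thus on the list of both CG6271 and CG6283.

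Lip3 was most like Ilp5, an insulin-like peptide gene, CG31103 and AhcyL2 (r = 0.928, 0.927 and 0.918). Ilp5 had mean signals of 46.93 and 77.3 for mutant and wild-type males and 47.67 and 56.27 in females. The shared probe set of CG6271 and CG6277 was most like HDAC6, RN-tre and Idgf6 (0.882, 0.874 and 0.841), and CG17191, near background, was most like Aplip1, nuf and mbl (0.887, 0.859 and 0.844). Among the lipases themselves CG17192 had r = 0.86 with CG6283 and 0.84 with CG6271, but 0.55 and -0.18 within groups, where group means play no part.

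Other genes of fat digestion and storage were read from lists of each pathway. Of 27 further genes of the pancreatic lipase family, 24 have a probe set, 11 were tested in males and none of them rose, while 3 fell (background 5.65%), and of 13 tested in females none passed (2.05%), with 3 at an unadjusted p under 0.05, 2 higher and 1 lower, and 0 by SAM. The median difference, with the yolk protein genes Yp1, Yp2 and Yp3 among those tested, was -0.67 in males and 0.01 in females. CG5162, a predicted lipase, fell in males (-0.91, standard error 0.17, adjusted p = 0.0113) and did not pass in females (-0.45, adjusted p = 0.118). The other members that fell in males were Yp1 and Yp2 (-3.44 and -3.90, adjusted p = 0.0258 and 0.0119), yolk proteins of this family that are no digestive enzymes. Yp2 measured 734.6, 424.6 and 58.2 on wild-type male arrays 1, 2 and 3, the first 2 of which carried eggshell transcripts, and 21.1, 1.9 and 3.9 on mutant male arrays.

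Of 21 further acid lipase genes, 13 were tested in males. CG31872 rose (1.15, standard error 0.14, adjusted p = 0.00217) and CG18301, CG11598 and CG11600 fell (-1.28, -0.71 and -0.94, adjusted p = 0.00774, 0.0132 and 0.0188), with a median of -0.35 over the 13. Beside this 1 rise and 3 falls stand 5.54% and 5.65% of all probe sets tested in males. These predicted lipases were seen mainly in males: CG31872 had means of 796.3 and 350.4 for mutant and wild-type males but 11.77 and 6.233 in females. Of the 6 testis markers, 4 were lower in mutant males at an unadjusted p under 0.05 and 1, Mst87F, after adjustment (-0.49, adjusted p = 0.028), with a median of -0.34 over the 6. Their part in the differences of these lipases was not tested. Of 5 tested in females none passed by limma or SAM (1 at an unadjusted p under 0.05), that 1 being Lip4 at -0.81 (adjusted p = 0.219).

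**Figure D4:**
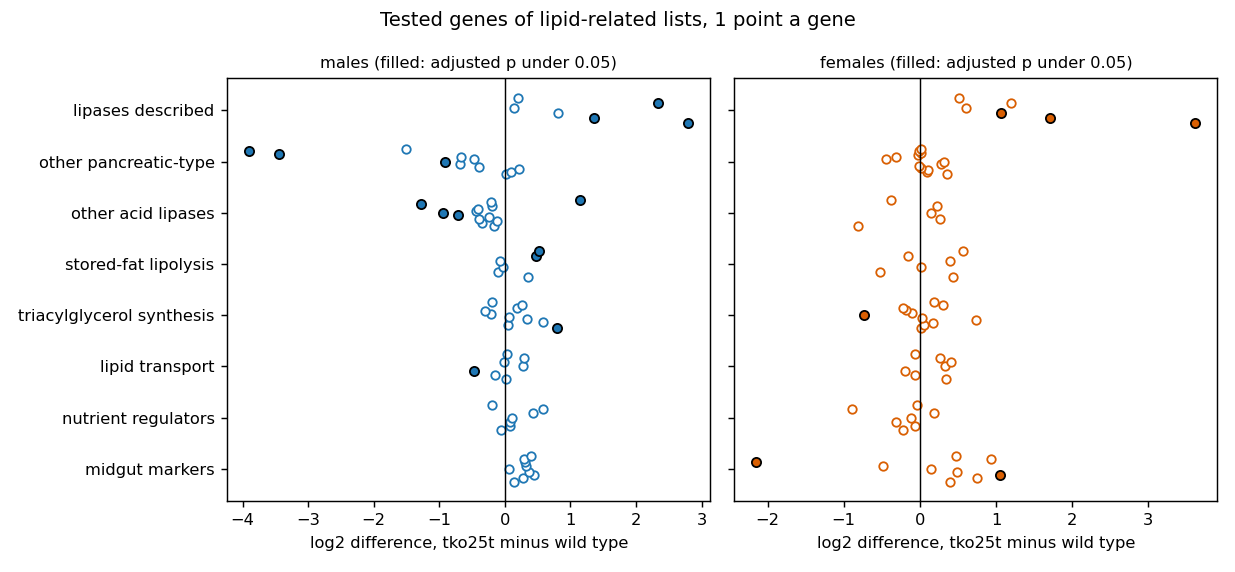
Log2 difference between tko25t and wild type of each tested gene in 8 lists, males on the left and females on the right, 1 point a gene, filled where the adjusted p was under 0.05. The lipases described here hold the largest positive differences in both sexes. Of the other genes of the pancreatic lipase family 3 fell in males, CG5162 and the yolk protein genes Yp1 and Yp2, and none rose. Of all probe sets tested in males 5.65% fell.

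Genes that handle stored fat were read next. In males adp (0.52, adjusted p = 0.0379) and AkhR, the receptor of the fat-mobilising adipokinetic hormone (0.48, adjusted p = 0.04997), rose by limma, 2 of 6 tested beside 5.54% of all probe sets, while SAM called 0 of the 6. None of 6 passed in females by limma, with 3 higher at an unadjusted p under 0.05 and 1 by SAM. The storage-fat lipase bmm (brummer) did not pass in either sex (0.35 in males, adjusted p = 0.112, and 0.43 in females, adjusted p = 0.129). In triacylglycerol synthesis mdy (midway), a diacylglycerol acyltransferase, rose in males (0.80, adjusted p = 0.0108), 1 of 10 where 11.2% of all probe sets passed, and Agpat2, an acyltransferase of an earlier step, fell in females (-0.74, adjusted p = 0.0165), 1 of 11 where 2.05% passed. In females CG1946 was at 0.74 (adjusted p = 0.0822). Of 7 genes of lipid transport in haemolymph, LpR1, a lipophorin receptor, fell in males by limma (-0.47, adjusted p = 0.0431), 1 of 7 where 11.2% of all probe sets passed, and SAM called 0. None passed in females by limma (1 at an unadjusted p under 0.05, 0 by SAM). None of 7 nutrient regulators passed by limma in either sex (1 in males and 2 in females at an unadjusted p under 0.05, 0 by SAM), with tobi, a target of the adipokinetic and insulin hormones, at 0.59 in males (adjusted p = 0.251) and -0.89 in females (adjusted p = 0.24) and sug at 0.43 in males (adjusted p = 0.0979).

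Midgut markers were read as a measure of gut RNA beside the gut lipases. Of 10 planned, 9 have a probe set and all 9 were tested. None passed in males by limma, beside 11.2% of all probe sets, with a median of 0.31 (1 at an unadjusted p under 0.05, 0 by SAM). In females 6 were higher and 1 lower at an unadjusted p under 0.05. Of these thetaTry, a trypsin, rose (1.05, standard error 0.15, adjusted p = 0.0119) and Mal-B1, a maltase, fell (-2.15, standard error 0.41, adjusted p = 0.0419) after adjustment, beside 1.44% and 0.609% of all probe sets, with a median of 0.48 over the 9. Their summed signal ranged from 5971 to 6564 in mutant and 4297 to 6107 in wild-type males, which overlap. In females it ranged from 4948 to 6207 in mutants and 4805 to 5428 in wild type, which also overlap. The brightest markers weigh most in this sum. Mal-A1 alone had means of 3199 and 2638 in mutant and wild-type males and 1530 and 2071 in mutant and wild-type females. It passed in neither sex by limma (0.33 and -0.48, adjusted p = 0.365 and 0.366). The overlap of the sums therefore does not show that gut RNA was alike in the genotypes. No marker was at 0, and the part of the amount of gut RNA in the lipase differences was not tested.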

How the data were processed

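The deposited intensity values are the authors' MAS5 signals from the Affymetrix GCOS software (version not given in the sources used here), on a linear scale and scaled by them array by array. No further scaling was applied. The 183 control probe sets took part in no test. In place of the study's filter by detection p-value, the brightest 53% of probe sets by mean signal were kept in males and 52% in females, and those kept in either sex entered the fit of all 12 arrays. To each signal 11.6 was added, the median over arrays of the 25th percentile, and limma 3.58.1 (R 4.3.3) was run with a variance trend. Python 3.11.15, pandas 2.3.3, numpy 2.4.6 and matplotlib 3.10.9 did the rest. Fits were tested on simulated data.

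Probe sets were paired with genes by the platform annotation, with 1 symbol for 13646, several for 402 and none for 4721. In lists the probe set with the highest mean signal stood for a gene.

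The lipases and lists were chosen with earlier results of these data known. The text names every lipase, the 3 genes most like each, and in each list chiefly the 2 genes with the smallest p in a sex, beside others chosen after their values were seen. The labels do not say that same-numbered arrays shared more than a number, and the main tests did not pair them. The deviations of same-numbered arrays correlated between genotypes at -0.113 to 0.374, the highest being 0.334 and 0.374 for female arrays 2 and 3. Whether these shared a collection or handling was not tested. With 3 arrays a group, the number of arrays limits precision. Alternatives were offsets of 1 and of 4 times the main one, quantile normalization, no filter, a replicate block, the fit of all 12 arrays for the within-sex comparisons, leaving out each array, and SAM after the study's methods (s0 = 20, fold above 1.5, false discovery rate under 2.5%). Fits without the 3 arrays that carried other-sex transcripts, and without a filter for the dim lipases, were chosen after seeing the data.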

Additional observations from a re-analysis of the deposited data

How the results depend on the processing

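With 3 arrays a group, many counts moved when a single array was left out. Probe sets with a genotype difference numbered 1124 in males, 614 by SAM, 143 without the 3 arrays that carried other-sex transcripts and 433 to 788 when each array was left out. In females there were 202, but 130 without a filter, 327 with a replicate block, 305 in the fit of all 12 arrays and 56 to 464 when each array was left out. With the replicate block males had 957, and 1 of 3 mutant male arrays and 2 of 3 mutant female arrays correlated best with the wild-type array of their own number. The effect averaged over the sexes passed for 976, for 341 without the 3 arrays and for 552 to 1278 when each was left out. The difference between the sexes passed for 12, for 6 with an offset of 1, 44 with 4 times the offset, 6 without a filter, 7 without the 3 arrays and 4 to 31 when each was left out. Sex differences passed for 7693 to 8461 in wild type and 6862 to 7823 in mutants when each array was left out, and over all alternatives for 7345 to 9150 and 6862 to 7861. Lipases that rose in males numbered 3, only CG5966 (1) without the 3 arrays, and 2 to 3 when each array was left out. In females they numbered 3, 2 without the 3 arrays and 1 to 4 when each was left out. Averaged over the sexes they numbered 4, 3 without the 3 arrays and 4 whichever single array was left out. CG5966 passed in females with the replicate block (1.20, adjusted p = 0.0407, over its alternatives 0.00752 to 0.389) and by SAM. CG6283 averaged over the sexes did not pass without the 3 arrays (0.89, adjusted p = 0.148, over its alternatives 0.00142 to 0.148). CG17192 differed between mutant sexes with 4 times the offset and without wild-type male array 3 or wild-type female array 2 (-0.78, -0.90 and -0.90, adjusted p = 0.00636, 0.0204 and 0.0468, over its alternatives up to 0.226). Values that changed sign were never called: CG6295 in males was -0.24 without the 3 arrays and -0.10 (without wild-type array 1) to 0.33 when each array was left out, and the shared probe set was -0.48 to 0.05 (without mutant array 3) in males and -0.28 to 0.02 (without mutant array 2) in females. The cause was not tested. Over all single lipase values, 418 of the alternatives kept direction and call, 22 lost the call, 8 gained it and 4 changed sign.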
